A study of Mus musculus with 6 samples.

Results

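Connexins are the subunits of gap junctions. Connexin proteins in the membrane of a cell form a hemichannel that docks with one on a neighbouring cell, so that ions and small metabolites pass directly between the cells. Family members differ in the tissues that use them: Gja4 (Cx37) and Gja5 (Cx40) are known from arterial endothelium, and Gja5 also from the atria and the conduction system of the heart. Gja1 (Cx43) is known from many embryonic tissues, among them neural crest and heart muscle, Gjc1 (Cx45) from the early heart tube and vessel wall, and Gjb2 (Cx26) from epithelia. These 5 of the 18194 genes with a name on the array were chosen by symbol, and every probe set annotated to them was taken, which makes 11 of 45101 probe sets. Among them, 6 belong to Gja1, 2 to Gjc1 and 1 each to Gja4, Gja5 and Gjb2. Of these, 4 of Gja1 and 1 of Gjc1 carry the suffix _x_at, which the manufacturer gives to probe sets whose probes may also match other transcripts.

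The 6 Affymetrix arrays formed 3 groups of 2: Flk1-positive cells, Flk1 KO embryos and WT embryos. Flk1 is the VEGF receptor encoded by Kdr, known from endothelial cells and their precursors. All were ICR mice staged at 8.5 dpc with 3 to 4 somites, when blood flow has not yet begun, and the KO and WT samples were embryos proper. The genotype label of the cells names only Flk1 positivity, while the design text lists Flk1+/GFP embryos, so that genotype and cell population cannot be told apart here. The labels do not describe the KO allele, the isolation of the cells or whether paired arrays stand for separate animals. The p-values therefore measure the spread between these samples alone, which may be technical.

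Values are linear probe-set signals, scaled before deposit to a common level on all arrays. Differences refer to log2(signal + 21.6), where changes of dim probe sets are understated, and are given ± SE from limma with 2 arrays a group. A signal of 57.4 was taken as the background level, from olfactory and vomeronasal receptor probe sets. Kdr had mean signals of 3319 in Flk1-positive cells, 46.6 in Flk1 KO embryos and 545 in WT embryos, which follows the labels. All 12 endothelial markers were higher in the Flk1-positive cells against WT embryos. That list was chosen with earlier results of these data known, so it is no independent check of the labels. Of the 11 connexin probe sets, 10 passed the filter on low values and were tested among 33778, and only that of Gja5 did not. Groups without overlap were common over all probe sets tested. Flk1-positive arrays lay above both WT arrays for 31.3% and below for 36.9%. They lay above both Flk1 KO arrays for 32.2% and below for 34%. Flk1 KO arrays lay above both WT arrays for 16.7% and below for 21.4%. In bulk samples, fewer cells of a type and less RNA per cell cannot be told apart.

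The windows below run from 250 bases before to 50 after the transcription start in RefSeq (GRCm38.p6). They are shown for Gja4, which was high in Flk1-positive cells, for Gja5, its arterial partner, and for Gja1, which was lower in those cells. Capitals mark the ETS core GGAA, the GC box GGGCGG and the AP-1 site TGANTCA on either strand.
Gja4, chr4:127313990-127314289, minus strand: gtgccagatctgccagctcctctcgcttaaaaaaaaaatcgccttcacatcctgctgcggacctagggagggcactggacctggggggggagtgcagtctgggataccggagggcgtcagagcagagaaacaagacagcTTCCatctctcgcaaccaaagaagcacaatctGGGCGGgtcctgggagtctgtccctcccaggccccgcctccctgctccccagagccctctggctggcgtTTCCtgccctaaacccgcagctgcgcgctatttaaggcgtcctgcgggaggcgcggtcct
Gja5, chr3:97032152-97032451, plus strand: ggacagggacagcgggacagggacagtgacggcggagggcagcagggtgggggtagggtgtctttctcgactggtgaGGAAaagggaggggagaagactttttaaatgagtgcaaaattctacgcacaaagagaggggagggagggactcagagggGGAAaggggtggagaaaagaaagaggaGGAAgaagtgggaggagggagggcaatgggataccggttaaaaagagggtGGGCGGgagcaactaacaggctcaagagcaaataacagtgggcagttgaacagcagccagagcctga
Gja1, chr10:56377050-56377349, plus strand: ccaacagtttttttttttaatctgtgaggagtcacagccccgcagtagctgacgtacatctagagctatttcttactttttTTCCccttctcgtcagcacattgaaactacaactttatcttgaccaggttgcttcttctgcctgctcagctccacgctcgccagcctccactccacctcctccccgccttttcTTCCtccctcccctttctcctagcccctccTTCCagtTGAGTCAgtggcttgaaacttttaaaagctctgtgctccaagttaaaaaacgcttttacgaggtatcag

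The Gja4 window held 2 GGAA matches and 1 GC box, the Gja5 window 3 GGAA matches and 1 GC box, and the Gja1 window 3 GGAA matches and 1 AP-1 site. Among all 32851 windows of this length, 96.0% held GGAA, 35.7% the GC box and 7.8% the AP-1 site. The T-box motif TCACAC (14.5% of all windows) had no match in these windows, and the NKX2 core AAGTG (46.4%) had 1, in that of Gja5. The Gjb2 window, not printed, held 1 GGAA and 2 GC boxes and none of the other motifs. Of the 5 members 4 had a window, and Gjc1, which had none, was not searched. No match overlapped one of another motif. A match is a description of the letters and not of a bound site.

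Gja4 was the only member called in all 3 comparisons, high in the Flk1-positive cells and low in Flk1 KO embryos. Its signals were 1861 and 1898 in Flk1-positive cells, 32.5 and 23.1 in Flk1 KO embryos, and 223 and 188 in WT embryos. The groups did not overlap, and the order was Flk1-positive, then WT, then Flk1 KO, with each step wider than the spread within any group. In Flk1-positive cells Gja4 was 3.07 ± 0.16 above WT embryos (limma adjusted p = 0.00045), which is 8.40-fold on the transformed scale. That difference was larger than those of 99.5% of all probe sets tested. The Flk1 KO mean lay below background. Against WT embryos, Gja4 in Flk1 KO embryos was thus lower by at least 2.86-fold (limma adjusted p = 0.0427), and at least 24.1-fold higher in Flk1-positive cells than in Flk1 KO embryos (limma adjusted p = 0.000135). The call between KO and WT embryos ended in 10 of 16 alternative settings, among them leaving out any 1 of the 6 arrays (adjusted p between 0.164 and 0.383).

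Endothelial markers, a list chosen with earlier results of these data known, moved with Gja4. All 12 on the list were higher in Flk1-positive cells, against WT embryos, with a median of 3.88, and 6 were lower in the KO embryos than in WT, with a median of -2.14. Over all probe sets tested the medians were -0.04 and -0.02. Of all probe sets tested, 11.6% were higher and 14.4% lower in Flk1-positive cells against WT embryos, and 0.0799% were lower in KO embryos than in WT. The summed signal of the 12 ran from 51729 to 52086 in Flk1-positive cells, from 965 to 1012 in Flk1 KO embryos and from 3615 to 3778 in WT embryos, and none was at the floor of 1. Of the 12, 2 had a Flk1 KO mean above background. Of 6 endocardial genes 5 were higher and 1 lower, and all 5 tested primitive erythroid genes were higher, in Flk1-positive cells against WT embryos. The part of these cells in the Gja4 values was not tested. Among the 11 tested genes of the arterial list, which includes Gja4, 7 were higher and 1 lower in Flk1-positive cells against WT, and Gja4 was the 1 that was lower in Flk1 KO embryos. The Notch ligand Dll4 was 3.42 ± 0.21 above WT embryos in Flk1-positive cells, and in Flk1 KO embryos it was below background without a call against WT embryos (limma adjusted p = 0.177).

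Gja5 was dim on every array. Its signals were 24.1 and 33.2 in Flk1-positive cells, 2.06 and 1.65 in Flk1 KO embryos, and 4.56 and 2.69 in WT embryos. All 6 values lay below background, so no fold is given. The arrays of the 3 groups did not overlap and stood in the same order as those of Gja4. At this level the order is a description only. Separation within pairs of groups was common over the probe sets tested (above), and the share with all 3 groups apart in this order was not computed.

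**Figure D1:**
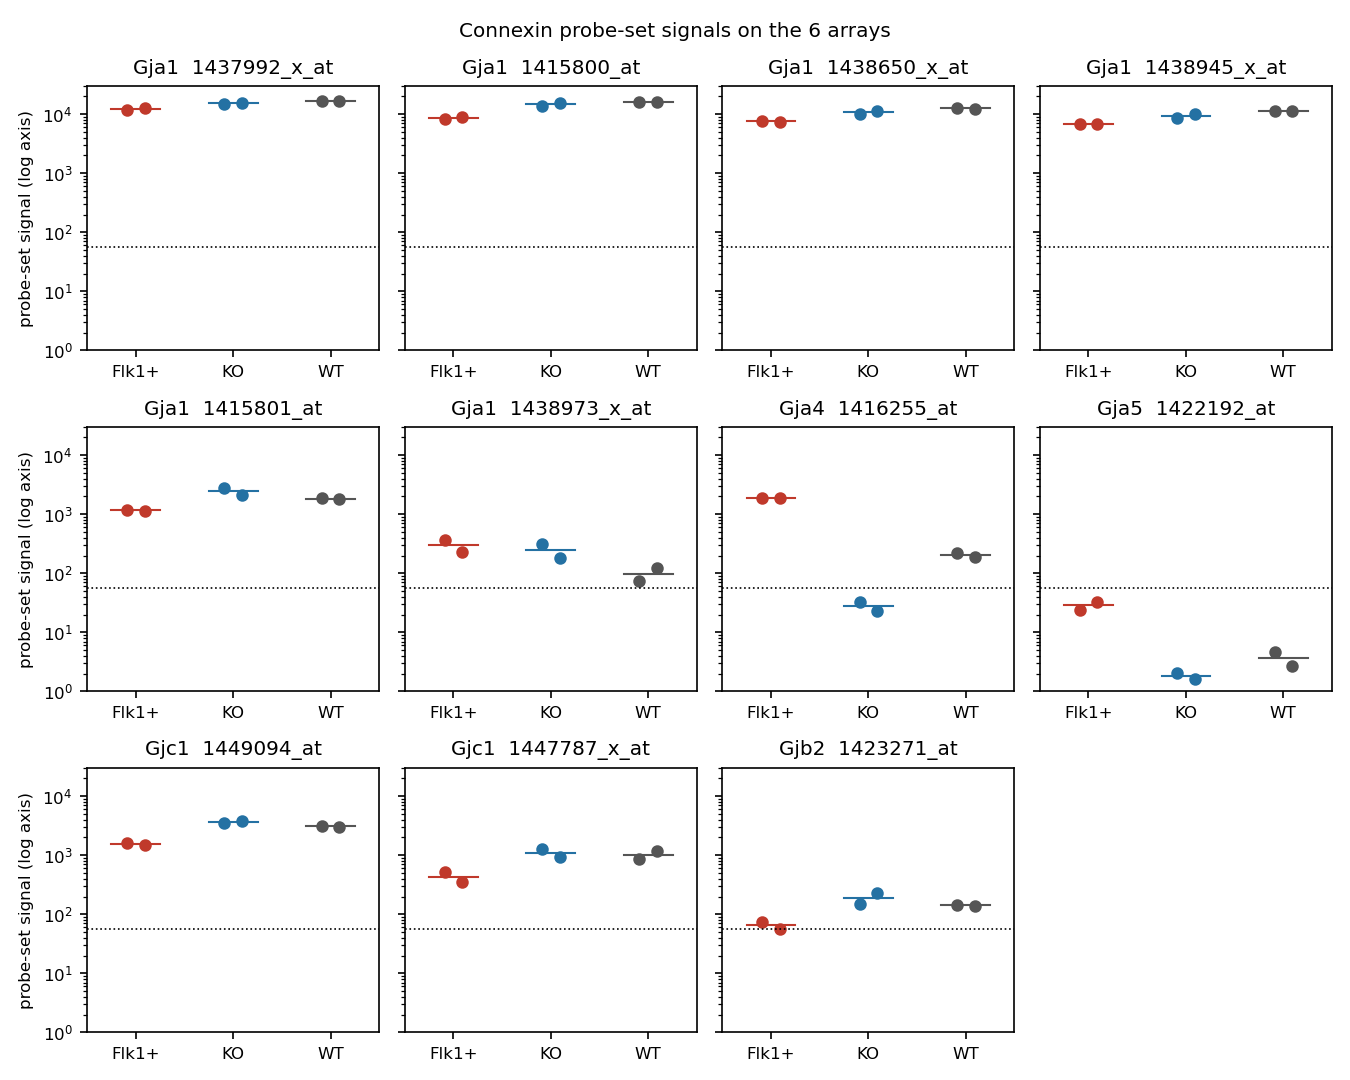
Signals of the 11 connexin probe sets (log axis), 1 panel each, with a point per array, a bar at the mean of 2 arrays and a dotted line at the background level of 57.4. Gja4 falls into 3 separate levels, with Flk1-positive cells at the top and Flk1 KO embryos below the line, while all points of Gja5 lie below it.

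Gja1 was lower in Flk1-positive cells on 4 of its 6 probe sets, far above background in every sample. The probe set 1415800_at read 8414 and 9033 in Flk1-positive cells, 13884 and 15363 in Flk1 KO embryos, and 16022 and 15781 in WT embryos. The Flk1-positive arrays lay below all 4 embryo arrays. The difference was -0.87 ± 0.13 from WT embryos (limma adjusted p = 0.00759) and -0.74 ± 0.13 from Flk1 KO embryos (limma adjusted p = 0.0112), so that transcript of this ubiquitous connexin was 1.82-fold and 1.67-fold lower in the Flk1-positive cells. The call against WT embryos ended without WT replicate 1 (limma adjusted p = 0.0533), and the one against Flk1 KO embryos without Flk1-positive replicate 1 (limma adjusted p = 0.0665). The brightest probe set, 1437992_x_at, read 11750 and 12805 in Flk1-positive cells, 14899 and 15550 in Flk1 KO embryos, and 16717 and 16879 in WT embryos. It stood in the same order, with a smaller step to the Flk1-positive cells, and just missed the threshold against WT embryos (-0.45 ± 0.13, limma adjusted p = 0.0503), which it passed in 5 of 16 alternative settings.

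The other Gja1 probe sets did not all run the same way. Both 1438650_x_at (-0.74 ± 0.13, limma adjusted p = 0.0123) and 1438945_x_at (-0.76 ± 0.14, limma adjusted p = 0.013) were lower in Flk1-positive cells than in WT, calls that ended without any 1 of the Flk1-positive or WT arrays. The dimmer 1415801_at read 1198 and 1133 in Flk1-positive cells, 2797 and 2132 in Flk1 KO embryos, and 1853 and 1798 in WT embryos. Here Flk1 KO embryos stood at the top, and Flk1-positive cells were lower, with differences of -0.64 ± 0.17 from WT embryos (limma adjusted p = 0.044) and of -1.05 ± 0.17 from Flk1 KO embryos (limma adjusted p = 0.00842). The call against WT embryos was lost without any 1 Flk1-positive or WT array, with the smaller pseudocount and without a filter. Against Flk1 KO embryos, 1438650_x_at was lower in Flk1-positive cells (-0.52 ± 0.13, limma adjusted p = 0.0329), a call lost in 8 of 15 alternative settings, and 1438945_x_at had no call (-0.44 ± 0.14, limma adjusted p = 0.0618).

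The dimmest Gja1 probe set, 1438973_x_at, went the other way. It read 373 and 226 in Flk1-positive cells, 316 and 185 in Flk1 KO embryos, and 74.4 and 124 in WT embryos. Both Flk1-positive cells and Flk1 KO embryos lay above WT embryos without overlap and overlapped each other. In Flk1-positive cells it was 1.40 ± 0.37 above WT embryos (limma adjusted p = 0.0426), a call lost in 10 of 15 alternative settings, among them leaving out any 1 of the 6 arrays. The difference between Flk1 KO and WT embryos was 1.16 ± 0.37 (limma adjusted p = 0.493), larger than those of 99.8% of all probe sets tested. The labels do not say which transcript it measures.

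Gjc1, which is expressed from the start of the beating heart tube, was lower in Flk1-positive cells on both of its probe sets. The brighter, 1449094_at, read 1614 and 1483 in Flk1-positive cells, 3509 and 3769 in Flk1 KO embryos, and 3179 and 2964 in WT embryos. Flk1-positive arrays lay well below the embryo arrays, and Flk1 KO arrays lay above WT arrays by a gap close to the spread within them. The difference from WT embryos was -0.98 ± 0.13 (limma adjusted p = 0.00522), and that from Flk1 KO embryos was -1.22 ± 0.13 (limma adjusted p = 0.0023). Both calls held in all 16 alternative settings. The second probe set, 1447787_x_at, read 511 and 357 in Flk1-positive cells, 1284 and 922 in Flk1 KO embryos, and 850 and 1189 in WT embryos, with Flk1 KO and WT arrays overlapping. It differed by -1.19 ± 0.28 from WT embryos (limma adjusted p = 0.0297), which lost its call without Flk1-positive replicate 2 or either WT array, and by -1.30 ± 0.28 from Flk1 KO embryos (limma adjusted p = 0.0208), lost without Flk1-positive replicate 2 or Flk1 KO replicate 1.

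Gjb2, a connexin of epithelial cells, was the third gene that was lower in Flk1-positive cells. Its signals were 73.6 and 55.8 in Flk1-positive cells, 149 and 230 in Flk1 KO embryos, and 146 and 140 in WT embryos. The Flk1-positive arrays lay near the background level and below all embryo arrays, and 1 of the 2 was under that level. Gjb2 differed by -0.94 ± 0.23 from WT embryos (limma adjusted p = 0.0325) and by -1.27 ± 0.23 from Flk1 KO embryos (limma adjusted p = 0.0117). The first call ended without any 1 Flk1-positive or WT array, and the second without Flk1-positive replicate 2 (limma adjusted p = 0.0566).

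**Figure D2:**
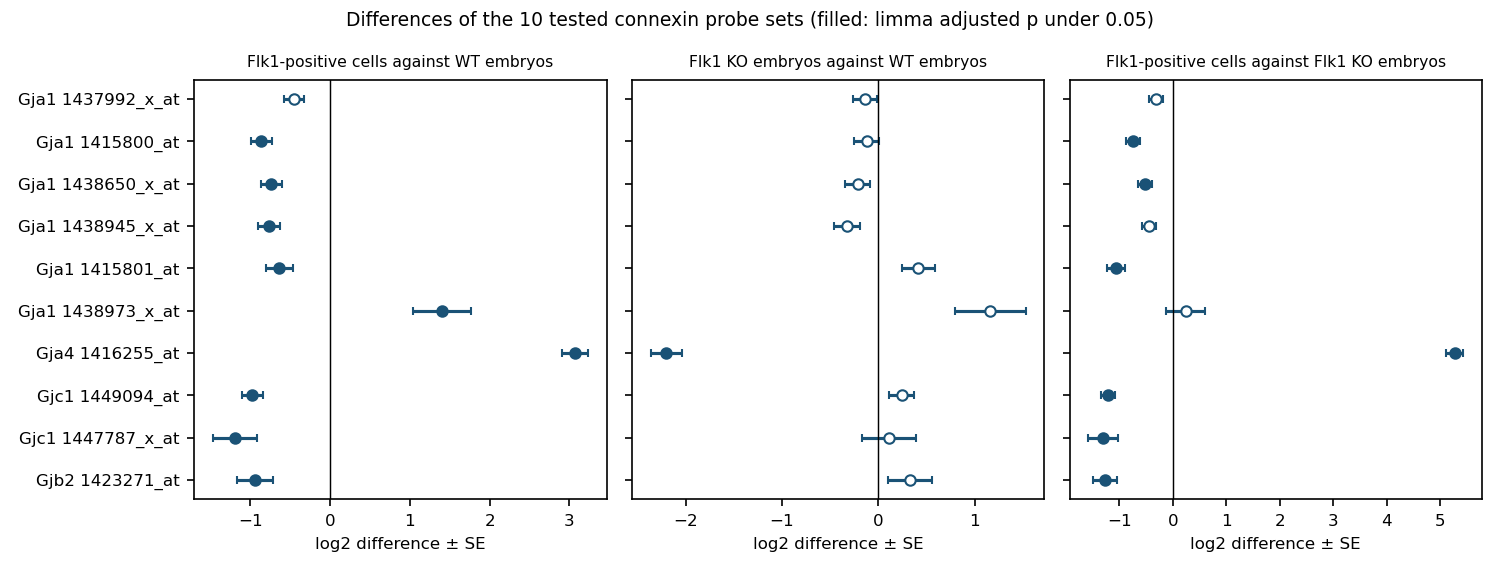
Differences on the log2(signal + 21.6) scale ± SE for the 10 connexin probe sets tested, in 3 comparisons of 2 arrays against 2, with filled points where the limma adjusted p was under 0.05. Gja4 stands alone at 3.07 for Flk1-positive cells against WT embryos, its points in both comparisons with Flk1 KO embryos rest on a KO mean below background and give no fold, and Gjc1, Gjb2 and 5 of the 6 Gja1 probe sets lie left of 0 in both comparisons of Flk1-positive cells.

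Counted over the 10 tested probe sets, 2 were higher and 7 lower in Flk1-positive cells against WT embryos, where 11.6% and 14.4% of all probe sets tested were higher and lower. Against Flk1 KO embryos, 1 was higher and 6 lower in Flk1-positive cells, with 13.8% and 15.4% of all. The lower calls came from 3 genes, and the probe sets of a gene are not independent. These comparisons share the Flk1-positive arrays. The 7 lower probe sets were 1.56-fold to 2.29-fold lower in Flk1-positive cells, against WT embryos, on the transformed scale.

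Markers of other embryonic tissues were lower in Flk1-positive cells too. Of all probe sets tested, 14.4% were lower than in WT embryos. Of 12 cardiomyocyte genes 10 were lower than in WT embryos (median -2.77), and their summed signal ran from 2156 to 2392 in Flk1-positive cells, 30955 to 45947 in Flk1 KO embryos and 22087 to 22415 in WT embryos. All 8 epithelial genes were lower (median -3.23), with sums of 2768 to 2915 in Flk1-positive cells, 22447 to 25128 in Flk1 KO embryos and 23504 to 25007 in WT embryos. Of 8 mural and mesenchymal genes 5 were lower (median -1.18), with sums of 3777 to 3954 in Flk1-positive cells, 14782 to 16325 in Flk1 KO embryos and 11659 to 12175 in WT embryos. All 7 neural plate genes were lower (median -3.70), with sums of 312 to 456 in Flk1-positive cells, 9215 to 9705 in Flk1 KO embryos and 10132 to 10327 in WT embryos. Among 6 neural crest genes, 4 were lower and 1, Ets1, which endothelium also uses, was higher and the only one with a Flk1-positive mean above background. Their sums ran from 7097 to 7365 in Flk1-positive cells, 2653 to 2762 in Flk1 KO embryos and 2990 to 3064 in WT embryos. All 6 yolk sac endoderm genes and 5 of 6 somite genes were lower. No gene of these lists was at the floor of 1 on both arrays of a group. The part of these tissues in the Gja1, Gjc1 and Gjb2 values was not tested.

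Between Flk1 KO and WT embryos, 1 of the 10 connexin probe sets was lower, that of Gja4, and 0 were higher, where 0.0799% of all probe sets tested were lower and 0 of 33778 higher by limma (837 higher at an unadjusted p under 0.05). For 1415800_at of Gja1 the difference was -0.12, with a 95% interval from -0.45 to 0.20. For 1449094_at of Gjc1 it was 0.24, from -0.09 to 0.57, and for Gjb2 0.33, from -0.24 to 0.89. These intervals bound the changes at this precision without showing that levels were alike. The 5 probe sets of Gjc1, Gjb2 and the dimmer Gja1 signals had positive differences and the 4 brighter ones of Gja1 negative ones, all without a call. The summed cardiomyocyte signal was also higher in Flk1 KO embryos than in WT (above), with 0 of 12 genes called by limma in that comparison. So were the sums of the mural and mesenchymal list (above) and of the yolk sac endoderm list. The latter ran from 22709 to 23822 in Flk1 KO embryos and from 15741 to 17497 in WT embryos. The endothelial, neural plate and neural crest sums were among those lower in Flk1 KO embryos (above).

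**Figure D3:**
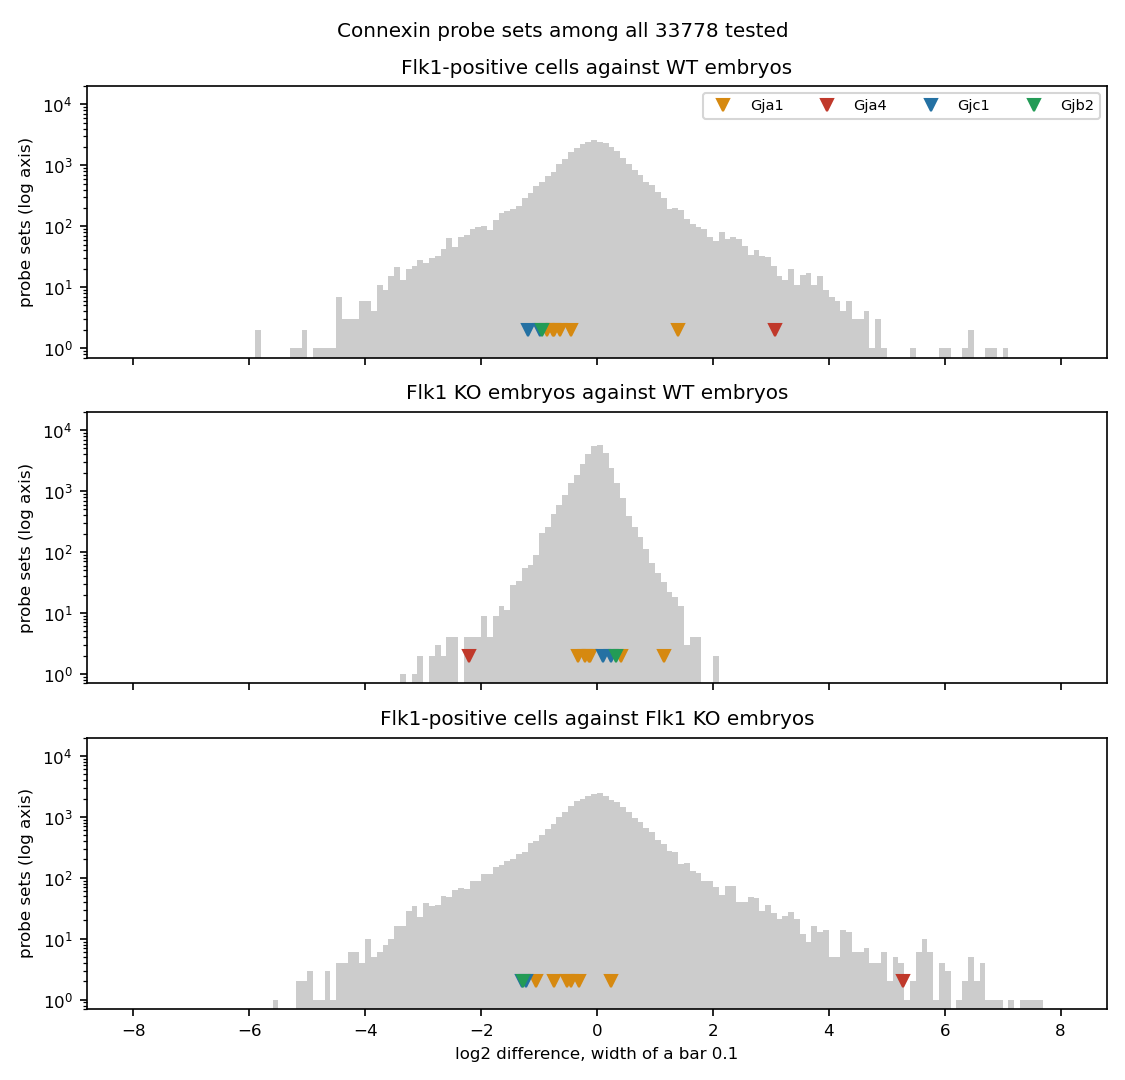
Histograms of the log2 differences of all 33778 probe sets tested (bar width 0.1, log axis of probe sets) in the 3 comparisons, with triangles for connexin probe sets at a fixed height. Gja4 lies in the tail of every panel, above 99.5% of all in the top one, and the others lie nearer the centre, except the dimmest Gja1 probe set at 1.16 in the middle panel.

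Other connexins and pannexins were mostly too dim to test. Of the 18 fixed genes 12 were found on the array and 3 passed the filter on low values. Gjb5, a connexin of epidermis and trophoblast, was at least 1.69-fold lower in Flk1-positive cells than in WT (limma adjusted p = 0.0101) and at least 1.22-fold lower than in Flk1 KO embryos (limma adjusted p = 0.0219), with a Flk1-positive mean below background. Panx1, which forms channels related in shape to connexin hemichannels, differed by -0.64 ± 0.23 (limma adjusted p = 0.0976) in Flk1-positive cells from WT embryos, and Gjb6 had a mean below background in all 3 groups. None of the 3 had a call between Flk1 KO and WT embryos.

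Genes that work with connexins at the membrane were considered next, from a fixed list of 16 scaffold, adhesion, trafficking and kinase genes, of which 14 were tested. In Flk1-positive cells 3 were higher and 2 lower than in WT embryos, where 11.6% and 14.4% of all probe sets tested were higher and lower. Those shares cover all probe sets, while the list takes 1 per gene. In a fit on 1 probe set per gene, 2162 of 14947 were higher and 3126 lower. The list median was 0.00 against -0.04 over all probe sets tested. The endothelial cadherin Cdh5 (4.34 ± 0.22) and the caveolar protein Cav1 (1.43 ± 0.15) were higher, as was the scaffold Tjp1, which binds the tail of several connexins (0.64 ± 0.16, limma adjusted p = 0.038). N-cadherin, Cdh2, was lower (-1.87 ± 0.17), and Tjp3, a junction scaffold of epithelia, was at least 1.94-fold lower. The kinase genes Src, Csnk1d, Prkca and Prkce, the ubiquitin ligase Nedd4 and the transport gene Cnst had no call. In Flk1 KO against WT embryos 0 of 14 were called by limma, and Cdh5 was below background in the KO without a call (limma adjusted p = 0.132).

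Of 21 transcription factor and Notch pathway genes with known action on connexin genes, 10 were higher and 6 lower in Flk1-positive cells against WT embryos, with a list median of 0.44. Over all probe sets tested, 11.6% were higher and 14.4% lower, with a median of -0.04. In the fit on 1 probe set per gene, the unit of the list, 2162 of 14947 were higher and 3126 lower. Sox18 (3.86 ± 0.19), Klf2 (3.64 ± 0.18), Dll4, Notch4 (2.82 ± 0.22), Notch1 (1.95 ± 0.13) and Sox17 (1.95 ± 0.40), all known from endothelium, were among those higher. Tbx18, a factor of the sinus horns and epicardium, was at least 3.01-fold lower. Irx3 (-1.98 ± 0.12), the cardiac factor Nkx2-5 (-1.68 ± 0.27) and Foxc1 (-1.14 ± 0.15) were also lower, and Tbx5, a known activator of Gja5 in heart, was below background in Flk1-positive cells without a call against WT embryos (limma adjusted p = 0.0769). Tbx2, known to repress Gja1 and Gja5 in the heart, was higher in Flk1-positive cells, by at least 1.57-fold over WT embryos (limma adjusted p = 0.0246). In Flk1 KO against WT embryos only Sox18 of the 21 was called, at least 5.14-fold lower (limma adjusted p = 0.0427). That call was lost with the smaller pseudocount, with only these groups fitted and with the replicate number as a block. No probe set on the array was called in those settings.

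**Figure D4:**
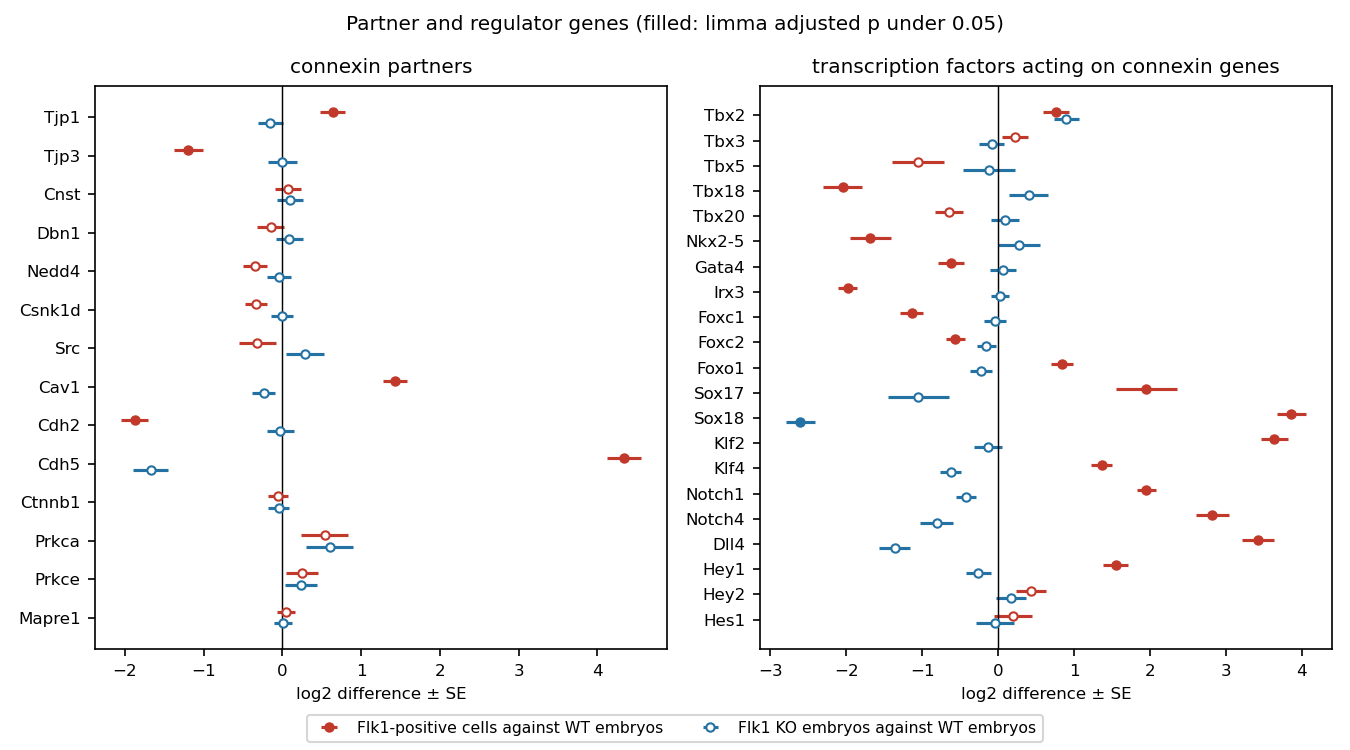
Differences ± SE (log2(signal + 21.6) scale) from WT embryos of the tested partner genes (left) and regulators (right), red for Flk1-positive cells and blue for Flk1 KO embryos, filled where the limma adjusted p was under 0.05. Cdh5, Sox18, Klf2 and Dll4 lie far to the right in red, and Sox18 is the 1 filled blue point.

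The genes whose pattern was most like each connexin were sought among 12465 genes above background in at least 1 group, by the root mean square difference of log2 values over the 6 arrays, each gene centred on its own mean. For Gja4 they were the potassium channel subunit Kcne3 (0.14), the VEGF receptor Flt4 (0.19) and the endothelial membrane protein gene Thsd1 (0.19). Kcne3 stood 3.31 above WT embryos in Flk1-positive cells, beside 3.07 for Gja4. The Gja4 distances include its Flk1 KO values, which lay below background. The Gjc1 pattern was nearest to those of Cyp7b1 (0.04), the receptor Lrp1 (0.05) and Isoc1 (0.06), and that of Gjb2 to Gna14 (0.06), Tmem14a (0.07) and Abr (0.09). The brightest Gja1 probe set was nearest to Lyar (0.02), Spata2 (0.03) and Fem1c (0.03). That probe set had no call in any comparison. The distances are not scaled to the size of the changes, so flatter patterns give smaller ones, and distances of different connexins do not rank likeness.

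**Figure D5:**
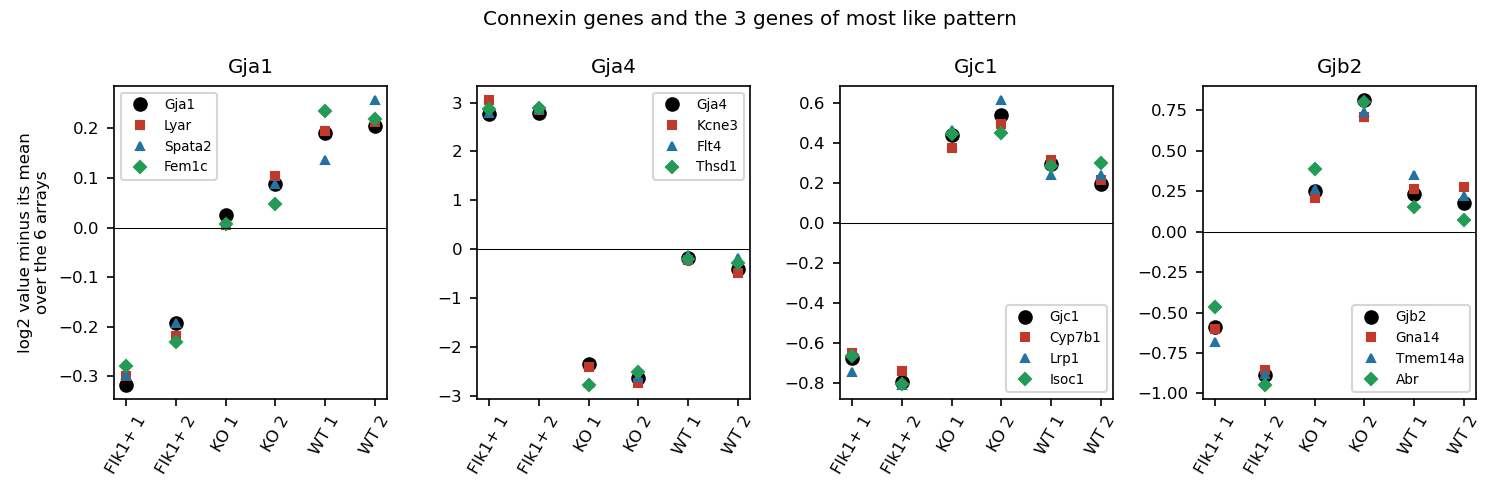
Log2 values on the 6 arrays, each gene minus its own mean over them, for 4 connexin genes (black) and the 3 genes of nearest pattern to each (coloured). The vertical scales differ: Gja4 and its neighbours span over 5 log2 units, while Gja1 and its neighbours stay within 1.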

How the data were processed

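Total RNA (RNeasy Micro kit, biotin label) was hybridised to Affymetrix arrays, per the labels' protocols. The deposited values are linear probe-set intensities with a floor of 1 and a trimmed mean of 500.0 on each array, so the authors had scaled them before deposit. The labels do not name the program that made them. Names came from the platform annotation, checked against RefSeq gene IDs (34754 of 34958 found). Log2(signal + 21.6) values, the pseudocount being the 25th percentile, were fitted with limma 3.58.1 in R 4.3.3 (lmFit, eBayes, two-sided, group as the only term, all 6 arrays, 3 residual and 2.49 prior degrees of freedom) over 33778 probe sets at or above the 25th percentile of means, with the 64 control probe sets left out and Benjamini-Hochberg adjustment over all. The deposited scale was kept, since array medians lay within 0.147. Background was set at the 95th percentile over 80 probe sets of olfactory and vomeronasal receptors, averaged over arrays. Where the dimmer mean lay below it, folds are bounds, as "at least". A gene of a list is its brightest probe set. Precision is limited by the number of arrays. The fit was run on simulated data with independent normal noise and few changed probe sets. That setting differs from these arrays, where many were called, so the run does not measure the error of the calls here.

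The members and lists were chosen with earlier results of these data known. Named genes were all members, the gap junction genes that passed the test, up to 2 rising and 2 falling genes of the partner and regulator lists, and the 3 nearest patterns; further genes were named after their values were seen. The alternatives were the pseudocount, filter, normalization, variance prior, samples in the fit, replicate block, 1 probe set per gene, the background percentile and leaving out each array. Plots were made in Python 3.11.15 with matplotlib 3.10.9.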

Additional observations from a re-analysis of the deposited data

How the results depend on the processing

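The count of 2 connexin probe sets higher in Flk1-positive cells against WT embryos was 1 with the smaller pseudocount, with only these 2 groups in the fit, with the replicate block, with 1 probe set per gene, and without any 1 array (1 to 1). The lost call was that of the dimmest Gja1 probe set, and Gja4 kept its call in all 16 alternatives (2.78 to 3.18). Without a filter that Gja1 call was lost too, and the count stayed at 2 because Gja5, below background on every array, was called. The count of 7 lower was 3 with 1 probe set per gene, which tests fewer probe sets, and 1 to 7 on leaving out single arrays. Leaving out an array leaves a group with 1, which is assumed to vary like the others. For Flk1 KO against WT embryos, the 1 lower call (Gja4) became 0 with the smaller pseudocount, without a filter, with only these 2 groups, with the replicate block and without any 1 array (0 to 0); the fitted difference, which gives no fold, ranged from -2.68 to -1.40. All 27 calls over the whole array were likewise lost with the smaller pseudocount and on leaving out any array, and the most were 134. Between Flk1-positive cells and Flk1 KO embryos, the count of 1 higher was 2 without a filter, which added Gja5 (below background on every array), and that of 6 lower was 2 with 1 probe set per gene and 3 to 5 without single arrays. Uncalled differences changed sign for 1447787_x_at of Gjc1 between Flk1 KO and WT embryos (-0.13 to 0.35 without single arrays) and for 1438973_x_at of Gja1 between Flk1-positive cells and Flk1 KO embryos (-0.11 to 0.60). Same-numbered arrays did not deviate together (correlations of 0.01 to 0.03 between groups). With 2 arrays a group, this cannot show whether they share an origin, which the labels do not give. With the number as a replicate block, Gjb2 and 1415801_at of Gja1 had limma adjusted p-values of 0.0576 and 0.0522 for Flk1-positive cells against WT embryos. The background level was 44.7 at the 90th percentile of the receptor probe sets and 11.5 at their median. At 44.7 the Gja4 bound between Flk1 KO and WT embryos was 3.41-fold. That between Flk1-positive cells and Flk1 KO embryos was 28.7-fold. At 11.5 both Flk1 KO signals of Gja4 (32.5 and 23.1) lay above the level, so no bound applied. The values there, 4.60-fold and 38.7-fold, were the fitted folds on the transformed scale. The causes of these shifts were not tested. Array number limits all of these.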
